A study of Mus musculus with 4 samples.

Results

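The genes described here are Gab3, Lrrc75b, Tdrp, Igfbp4, Nsg2, Dapl1 and Actn1, which earlier results of this comparison had singled out as gained when mouse regulatory T (Treg) cells lose Foxp3, together with Gab2, the paralogue of Gab3. They were found by exact gene symbol in the annotation of the array, where 8 genes of 18193 were represented by 18 probe sets of 34945. The first 7 genes hold 15 of these probe sets and Gab2 holds 3. All values below come from the contrast that picked the genes, so their levels are a description and carry no test.

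RNA came from CD4+ YFP+ Ly5.2+ T cells of mice, measured on 4 single-colour arrays. Every sample, controls included, had been given Cre recombinase with the construct HR-MMPCreGFP, then transferred into recipients and recovered after 6 weeks. In the deleted group (2 arrays) the Foxp3 gene was flanked by loxP sites, and in the control group (2 arrays) it was wild type. YFP, whose expression depends on Cre, marks exposure to Cre and not loss of Foxp3 itself. The comparison asks which transcripts of mature peripheral Treg cells differ after ablation of Foxp3. The labels give neither the animals behind each array nor their age, strain or recipients, so the p-values speak only for the scatter among these arrays, part of which may be technical.

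Foxp3 is the transcription factor that defines Treg cells, and it both holds genes down and keeps others on. The 8 genes belong to unrelated families and few have a settled role in these cells. Gab3 and Gab2 are docking proteins, which become phosphorylated below cytokine and growth factor receptors and then bind the phosphatase SHP2 and phosphatidylinositol 3-kinase. Igfbp4 is a secreted protein that binds insulin-like growth factors, Actn1 (alpha-actinin-1) cross-links actin filaments at adhesion sites, and Nsg2 is a small endosomal membrane protein known from neurons. Dapl1 is a relative of the death-associated protein Dap, Tdrp was named for testis development, and Lrrc75b carries leucine-rich repeats. Transcripts of Igfbp4, Actn1, Nsg2 and Dapl1 are commonly seen in naive mouse T cells.

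The labels were first checked on the arrays. Foxp3 read 438 and 429.8 (GCRMA intensity, replicates 1 and 2) in the deleted arrays, and 2694 and 2404 in the wild-type arrays, a log2 difference of -2.55 (SE 0.27, adjusted p = 0.106 in limma). All 7 CD4 T cell markers with a probe set (Cd3d, Cd3e, Cd3g, Cd4, Cd28, Cd5 and Cd6) were above a log2 intensity of 4 in all 4 arrays, whereas both CD8 markers stayed below 4 in every array. Cd4 read 9.03 and 9.63 (log2) in the deleted arrays, and 8.38 and 7.15 in the wild-type arrays, a difference of 1.56 (SE 0.53). It was the only one of the 7 to differ by at least 1 with no overlap between the groups. A log2 intensity of 4 is used throughout as the level below which values lie close to the floor of the arrays. Myeloid genes stood apart in deleted replicate 1, where 8 of 12 markers had their highest reading. Of these 8, Itgax was below a log2 intensity of 4 in every array (2.50 there, 2.29 to 2.34 in the others). The summed intensity of the 12 markers was 10624 in deleted replicate 1 against 3381 in deleted replicate 2 and 2817 and 3022 in the wild-type arrays. The NK cell markers Klra8 and Tyrobp, the latter also made by myeloid cells, were highest there too (log2 intensity 7.57 and 8.64, against at most 6.47 and 6.93 in the other arrays). Klra7 was highest in wild-type replicate 1 (4.89, against 4.28 to 4.42 in the other arrays), and Ncr1 was below 4 in every array. The summed intensity of the 4 NK cell markers was 616 in deleted replicate 1, against 169 in deleted replicate 2 and 246 and 177 in the wild-type arrays. The part of these signals in the results was not tested, and the differences of the 7 genes on their brightest probe sets are also given without deleted replicate 1.

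Promoter windows in the RefSeq table of assembly GRCm38.p6, from 250 bases before to 50 bases after a transcription start, were matched for 4 of the 8 genes (Igfbp4, Actn1, Nsg2 and Dapl1). Those of Igfbp4 and Actn1, the brightest of the genes gained, and of Dapl1, whose groups overlap, are printed so that the same stretch can be compared between genes that differ in their response. Capitals mark matches to a forkhead motif (TGTTTAC, the family of Foxp3), to TCF/LEF motifs (CTTTGAA or CTTTGAT) and to the TATA box (TATAAA), searched on both strands.
Igfbp4: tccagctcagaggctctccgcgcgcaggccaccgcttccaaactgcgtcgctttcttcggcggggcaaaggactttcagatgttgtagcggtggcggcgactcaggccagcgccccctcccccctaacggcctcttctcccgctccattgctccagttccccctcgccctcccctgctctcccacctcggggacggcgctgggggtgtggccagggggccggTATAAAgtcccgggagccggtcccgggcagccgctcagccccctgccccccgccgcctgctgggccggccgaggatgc
Actn1: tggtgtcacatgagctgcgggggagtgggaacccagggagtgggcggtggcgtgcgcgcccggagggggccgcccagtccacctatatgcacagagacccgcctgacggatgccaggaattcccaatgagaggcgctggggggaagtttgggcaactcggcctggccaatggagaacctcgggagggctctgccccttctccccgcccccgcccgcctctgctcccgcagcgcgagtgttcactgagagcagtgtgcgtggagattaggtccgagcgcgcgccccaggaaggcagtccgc
Dapl1: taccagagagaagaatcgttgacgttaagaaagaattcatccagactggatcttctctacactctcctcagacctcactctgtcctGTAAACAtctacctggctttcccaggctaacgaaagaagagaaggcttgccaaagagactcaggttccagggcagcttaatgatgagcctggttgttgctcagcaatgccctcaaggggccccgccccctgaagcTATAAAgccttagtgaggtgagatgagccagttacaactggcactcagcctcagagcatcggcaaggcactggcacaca

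The Igfbp4 window lies at chr11:99040994-99041293 on the plus strand, the Actn1 window at chr12:80260314-80260613 on the minus strand and the Dapl1 window at chr2:59484403-59484702 on the plus strand. Igfbp4 and Dapl1 carry TATAAA just before the start, with its first base at -28 and -29. It lay just before the start in 323 of 16560 plus-strand windows and 314 of 16291 minus-strand windows. Anywhere in the window and on either strand, 13.6% of all 32851 windows hold this motif. The forkhead motif was found in Dapl1 alone, at -164 on the strand opposite to the gene (GTAAACA as printed), and 3.65% of windows hold it. Neither TCF/LEF motif was found in the 5 windows of these genes, against 5.13% (CTTTGAA) and 3.73% (CTTTGAT) of all windows. The RUNX motif TGTGGT (16.8% of windows) had no match either, and CCACCC, a KLF motif (31.5%), matched only the second Nsg2 window. The G and C content was 71.3% for Igfbp4, 68.3% for Actn1 and 51% for Dapl1, against a median of 52.7% over all windows. A match is a description of these letters and not a binding site.

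Gab3 was above a log2 intensity of 4 in the deleted arrays only. Its probe set (1426589_at) read 146 and 88.0 in the 2 deleted arrays against 5.78 and 9.12 in the wild-type arrays (GCRMA intensity). Both deleted arrays were therefore well above both wild-type arrays, whose readings lay close to the floor. The log2 difference was 3.96 (SE 0.43) as deposited and 2.82 with values below 4 raised to 4, since the wild-type level is not resolved. Gab3 is best known from macrophages, where it acts below the receptor Csf1r, and deleted replicate 1 had the high myeloid signal. Without that array the Gab3 difference was 3.60. The myeloid markers Cd68 and Fcgr3 exceeded 4 in deleted replicate 1 alone, and Itgam, Itgax and Cd14 were below 4 in every array. In every array S100a8, S100a9, Cst3, Csf1r, Lyz2 and Adgre1 were above 4, and Mpo exceeded it in deleted replicate 2 alone. The part of myeloid cells in the Gab3 difference was not tested.

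Gab2 was dim on all 3 of its probe sets, and none passed the filter. Its probe set 1419829_a_at read 19.3 and 26.9 in the deleted arrays, and 5.92 and 5.84 in the wild-type arrays, a log2 difference of 1.96 (SE 0.20 in the fit without a filter). The groups did not overlap, in the same direction as Gab3, but with values below 4 raised to 4 this difference was 0.51. The other Gab2 probe sets (1420785_at and 1439786_at) stayed between 4.66 and 5.57 in all 4 arrays and differed by 0.03 and -0.01, with overlapping groups. Both were at the floor and do not bear on the difference, and no probe set showed a Gab2 level above the floor in wild-type cells.

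Lrrc75b and Tdrp, like Gab3, exceeded a log2 intensity of 4 in the deleted arrays only. Lrrc75b (1456878_at) read 47.5 and 43.5 in the deleted arrays, and 7.07 and 6.50 in the wild-type arrays. Its log2 difference was 2.74 (SE 0.28), and 1.51 with values below 4 raised to 4. Tdrp (1428357_at) read 83.2 and 64.7 against 10.7 and 10.5, a log2 difference of 2.80 (SE 0.32), and 2.20 with values raised to 4. For both genes the replicates lay close together and the groups far apart. The size of these differences depends on how the floor is treated. Raising values to 4 cannot bring the wild-type arrays above the deleted arrays, so the kept order is no check of the separation.

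**Figure D1:**
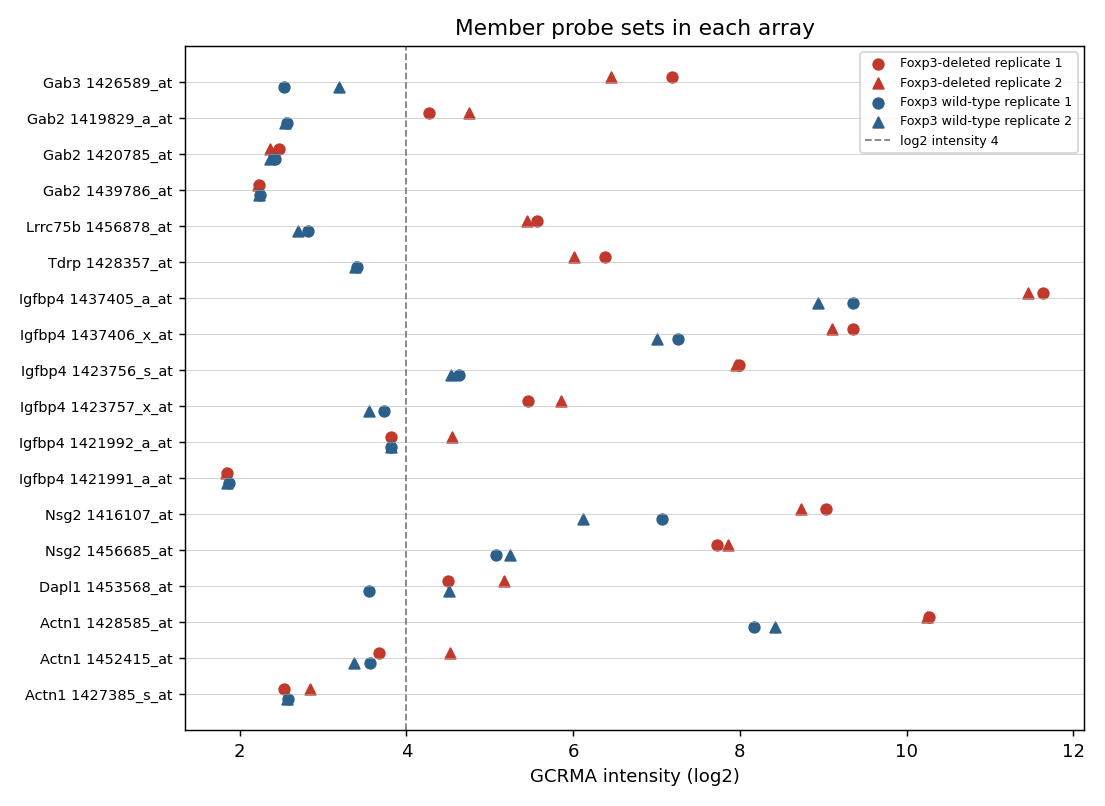
GCRMA intensity on a log2 scale (x axis) for the 18 probe sets of the 8 genes (rows) in each of the 4 arrays. Red points are Foxp3-deleted and blue points Foxp3 wild-type arrays, circles are replicate 1 and triangles replicate 2, and the dashed line is a log2 intensity of 4. Gab3, Lrrc75b and Tdrp cross the line between the groups, Igfbp4, Nsg2 and Actn1 separate well above it on their brighter probe sets, and the Dapl1 points interleave.

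Igfbp4 was the brightest of the genes and the one with the most probe sets. On 1437405_a_at it read 3182 and 2811 in the deleted arrays, and 656 and 490.0 in the wild-type arrays, a log2 difference of 2.40 (SE 0.29), or 5.28-fold. The probe set 1423756_s_at read 255 and 248 against 24.8 and 23.3, a log2 difference of 3.39 (SE 0.33). On 1437406_x_at and 1423757_x_at the differences were 2.10 (SE 0.34) and 2.02 (SE 0.32), also with no overlap. The wild-type readings of 1423757_x_at were below a log2 intensity of 4, and with values below 4 raised to 4 its difference was 1.66. These 4 probe sets put every deleted array above every wild-type array. An x in the suffix marks probes that may bind other transcripts and an s probes shared by several transcripts, so the spread of these differences is between different probes of the gene and not between samples. The dim probe set 1421992_a_at read 14.1 and 23.5 against 14.1 and 14.0, with overlapping groups and a difference of 0.37 (SE 0.35), which was 0.0025 without deleted replicate 2. The last one, 1421991_a_at, lay between 3.57 and 3.65 in all 4 arrays, at the floor, and does not bear on the difference.

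Nsg2 was separated on both of its probe sets. On 1416107_at it read 524 and 424 in the deleted arrays, and 134 and 69.4 in the wild-type arrays, a log2 difference of 2.29 (SE 0.45). On 1456685_at it read 212 and 232 against 33.8 and 38.0, a log2 difference of 2.63 (SE 0.34), or 6.18-fold. The wild-type arrays differed from each other by 0.95 (log2) on the first probe set and by 0.17 on the second, both less than the gap between the groups. Unlike Gab3, Lrrc75b and Tdrp, Nsg2 was above a log2 intensity of 4 in wild-type cells as well.

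Actn1 gave close replicates on its bright probe set and little on the others. On 1428585_at it read 1228 and 1215 in the deleted arrays, and 288 and 342 in the wild-type arrays, a log2 difference of 1.96 (SE 0.30), or 3.90-fold. The probe set 1452415_at read 12.8 and 23.1 against 11.8 and 10.4, a difference of 0.63 on the log2 scale, and 1427385_s_at stayed between 5.81 and 7.17 with overlapping groups. These 2 dim probe sets did not pass the filter.

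Dapl1 did not follow its label as a gained gene. Its only probe set (1453568_at) read 22.6 and 36.0 in the deleted arrays, and 11.7 and 22.8 in the wild-type arrays. Deleted replicate 1 lay just below wild-type replicate 2, so the groups overlapped. The mean log2 difference of 0.80 (SE 0.46) was 0.32 without wild-type replicate 1, 1.28 without wild-type replicate 2 and 0.47 without deleted replicate 2. Dapl1 is therefore described here as a dim gene whose difference was within the spread between replicates.

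Over the 15 probe sets of the 7 genes, 10 were higher by at least 1 on the log2 scale with no overlap between the groups, and these came from 6 of the 7 genes. Among all 13999 probe sets tested, 6.67% met the same rule upwards and 4.44% met its mirror image downwards. Over all 34945 probe sets with no filter the upward share was 2.99%. Since the genes were picked on this contrast, nothing is read from the higher share. Without deleted replicate 1, the array with the high myeloid signal, the log2 difference on the brightest probe set was 2.68 for Lrrc75b, 2.62 for Tdrp, 2.31 for Igfbp4, 2.14 for Nsg2, 1.95 for Actn1 and 1.14 for Dapl1. Of the 15 probe sets, 12 passed the filter of a mean log2 intensity of at least 4 over all arrays. For 5 of these 12 the wild-type mean was below 4, so they passed through the deleted arrays. None of the 13999 probe sets tested passed an adjusted p of 0.05 in limma (0% upwards and 0% downwards). At an unadjusted p under 0.05 in the same fit, 781 were higher and 557 lower. The smallest adjusted p was 0.0956.

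**Figure D2:**
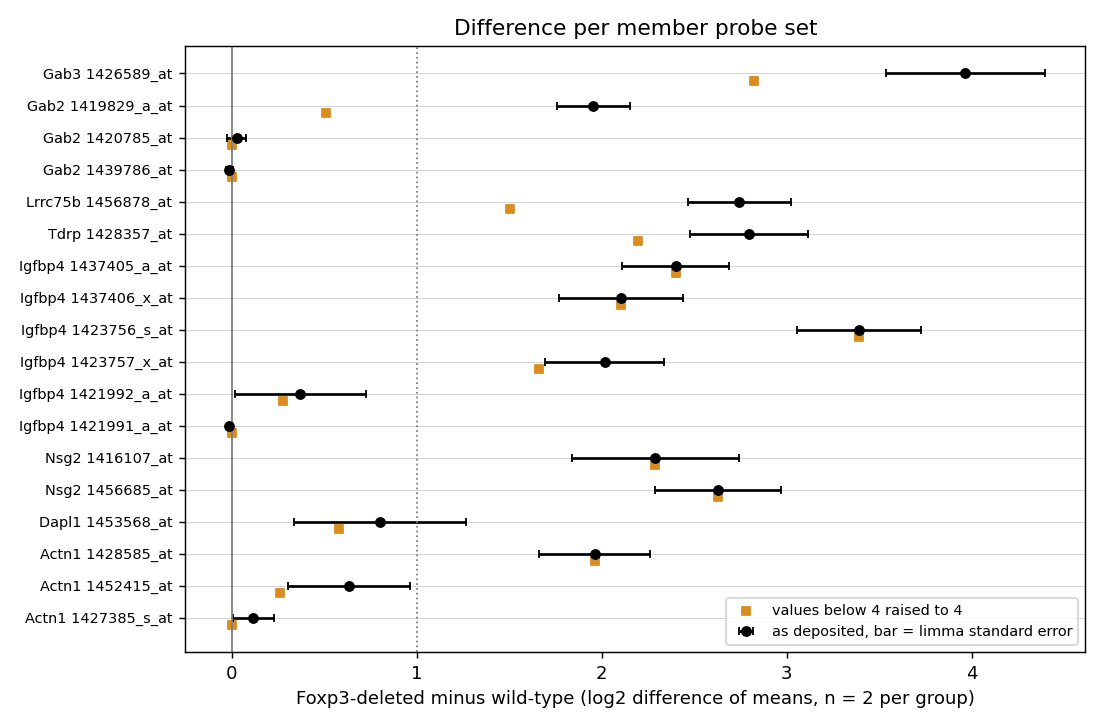
Difference between the means of the deleted and wild-type arrays on the log2 scale (x axis, n = 2 per group) for each of the 18 probe sets. Black points are values as deposited with the limma standard error (for the 6 probe sets below the filter, from the fit without a filter), orange squares have values below 4 raised to 4, and the dotted line is a difference of 1. Raising the floor shrinks Gab3 from 3.96 to 2.82 and Lrrc75b from 2.74 to 1.51, and leaves the brighter probe sets of Igfbp4, Nsg2 and Actn1 in place.

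The close relatives of these genes were mostly at the floor. Of 14 paralogues with a probe set only 4 were bright enough to test, and none passed in limma (smallest adjusted p = 0.16). Actn2, the alpha-actinin of heart and skeletal muscle, read 624 and 569 in the deleted arrays, and 137 and 121 in the wild-type arrays, a log2 difference of 2.21 (SE 0.33, adjusted p = 0.16). Actn4, the other non-muscle form, read 9.78 and 10.90 against 10.86 and 9.86 on the log2 scale, with overlapping groups, and Actn3 was at the floor at 2.45 to 2.51. Dap, the relative of Dapl1, read 1313 and 1979.7 against 539 and 827, a log2 difference of 1.27 (SE 0.38, adjusted p = 0.409), and its other tested probe set differed by 2.49. The groups of Actn2 and Dap did not overlap, and those of Igfbp7 did (difference 0.26, SE 0.36, and -0.08 without deleted replicate 1). Gab1, Nsg1, Caly, Igfbp1, Igfbp2, Igfbp3, Igfbp5 and Igfbp6 were below a log2 intensity of 4 in every array on their brightest probe set. Lrrc75a was above it in wild-type replicate 1 alone (4.97, against 2.69 to 2.83 in the other arrays).

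The partners of GAB proteins split in both directions. Of 25 tested genes 15 had a higher and 10 a lower mean in deleted cells, with a median difference of 0.36, against a median of -0.02 over the 8629 genes tested, of which 48.1% had a higher mean. The list median was 0.07 without deleted replicate 2. By the rule of at least 1 with no overlap 6 were higher and 1 was lower, where 5.57% of all genes tested were higher and 4.93% lower by it. None passed in limma (smallest adjusted p = 0.319). Ptpn11, which encodes SHP2, had log2 intensities of 10.25 and 10.62 in the deleted arrays, and 9.41 and 9.33 in the wild-type arrays, a difference of 1.07 (SE 0.29, adjusted p = 0.38). The lipase gene Plcg2 differed by 2.07 (SE 0.51) and Pik3cg, a catalytic subunit of phosphatidylinositol 3-kinase, by 1.94 (SE 0.46), though by 0.50 on its other tested probe set. Pik3cd, the subunit most used below the T cell receptor, differed by 0.87 (SE 0.36), and the adaptor gene Grb2 by 0.22 (SE 0.32, and 0.07 without deleted replicate 2). The 3 tested probe sets of Pik3cd ranged from 0.32 to 1.45, and the other tested one of Grb2 differed by -0.04. Sos2, an activator of Ras that binds Grb2, differed by 1.25 (SE 0.95), and its sign turned without wild-type replicate 1. Csf1r had overlapping groups (9.85 and 8.93 against 9.06 and 8.30, with its highest value in deleted replicate 1, and a difference of 0.71 that was 0.25 without it). The other tested probe set of Csf1r differed by 1.30. Csf1, the ligand of Csf1r, was at 5.95 and 5.43 against 7.38 and 6.68, a difference of -1.34 (SE 0.43, adjusted p = 0.437).

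Few genes of the insulin-like growth factor system could be measured beside Igfbp4. Of 20 with a probe set 5 were tested, 4 with a higher and 1 with a lower mean (median 0.70, smallest adjusted p = 0.396 in limma). By the rule of at least 1 with no overlap 1 was higher and 0 were lower. Over all genes tested 48.1% had a higher mean, and by the same rule 5.57% were higher and 4.93% lower. The median of 0.70 became 0.31 without deleted replicate 1, 0.16 without wild-type replicate 1 and 1.24 without wild-type replicate 2. Igf2r, the receptor that clears Igf2, differed by 1.43 (SE 0.41) with no overlap, but its other tested probe set had the opposite sign (-0.59). Igf1r, the signalling receptor, differed by 0.70 (SE 0.48, and 0.16 without wild-type replicate 1), and its tested probe sets ranged from -0.38 to 0.70. Stc2, an inhibitor of the proteases that cleave Igfbp4, had overlapping groups (difference 0.92, SE 0.76, its sign turned when wild-type replicate 1 was left out), and the insulin receptor gene Insr had a difference of -0.98 (SE 0.36). The ligand genes Igf1 and Igf2 and the Igfbp4 protease gene Pappa were, on their brightest probe set, below a log2 intensity of 4 in all 4 arrays.

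Genes of the adhesion cytoskeleton that Actn1 belongs to had mostly higher means. Of 19 tested genes 15 were higher and 4 lower (median 0.62), 4 by at least 1 with no overlap upwards and 0 downwards (against 5.57% of all genes tested upwards and 4.93% downwards, and 48.1% with a higher mean), and none passed in limma (smallest adjusted p = 0.16, for Actn2). Flna, the actin cross-linker filamin A, differed by 1.53 (SE 0.67), Zyx (zyxin), which binds alpha-actinin, by 1.21 (SE 0.52), and Lpp, a relative of zyxin, by 1.17 (SE 0.34). Without deleted replicate 2 the difference was 0.68 for Flna and 0.64 for Zyx, and the 6 tested probe sets of Lpp ranged from -1.18 to 1.45. The list median was 0.29 without deleted replicate 2.

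Naive T cell genes were compared because 4 of the members are known from naive cells. Of 17 tested genes 11 had a higher and 6 a lower mean (median 0.56), 5 were higher and 1 lower by at least 1 with no overlap (against 5.57% of all genes tested upwards and 4.93% downwards, and 48.1% with a higher mean), and none passed in limma (smallest adjusted p = 0.115). Rflnb (refilin B, which binds filamins) read 479 and 452 in the deleted arrays, and 66.4 and 68.5 in the wild-type arrays, a log2 difference of 2.79 (SE 0.33), and 2.54 on its other tested probe set. S1pr1, a receptor for exit from lymphoid tissue, differed by 1.89 (SE 0.32), and by 1.06 with values below 4 raised to 4, since both wild-type readings were below 4. Klf2, a factor that drives S1pr1 expression, differed by 1.68 (SE 0.41). Ccr7, which guides cells into lymph nodes, differed by 0.89 (SE 0.34), Satb1, a chromatin organiser, by 1.03 (SE 0.53) and Lef1, a TCF/LEF factor, by 0.33 (SE 0.34), with overlapping groups for Lef1. Satb1 differed by 0.41 without wild-type replicate 1 and by 0.63 without deleted replicate 1, and Lef1 by 0.09 without wild-type replicate 1. The 4 tested probe sets of Satb1 ranged from 0.64 to 1.85, and the other tested one of Lef1 differed by 1.02. Cd27, a costimulatory receptor of naive and memory cells, had a difference of -1.19 (SE 0.36). The list median was 0.30 without deleted replicate 2.

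Effector and memory genes were measured beside them and had 17 higher and 5 lower means among 22 tested (median 0.78), with 7 higher and 3 lower by at least 1 with no overlap (against 5.57% of all genes tested upwards and 4.93% downwards, and 48.1% with a higher mean). The chemokine receptor gene Cxcr6 differed by 2.93 (SE 0.70, and 1.92 without deleted replicate 1) and the chemokine gene Ccl5 by 2.85 (SE 0.38). Klrg1, an inhibitory receptor, differed by -5.34 (SE 0.48) and the granule protease gene Gzmb by -3.59 (SE 0.35), and the smallest adjusted p of the list was 0.0956 in limma. Cd44, a marker of antigen-experienced cells, differed by 0.59 (SE 0.31), and by 0.26 without wild-type replicate 2. Each of these lists thus held genes with higher and genes with lower means. In bulk RNA, more cells of a type and more RNA per cell cannot be told apart.

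**Figure D3:**
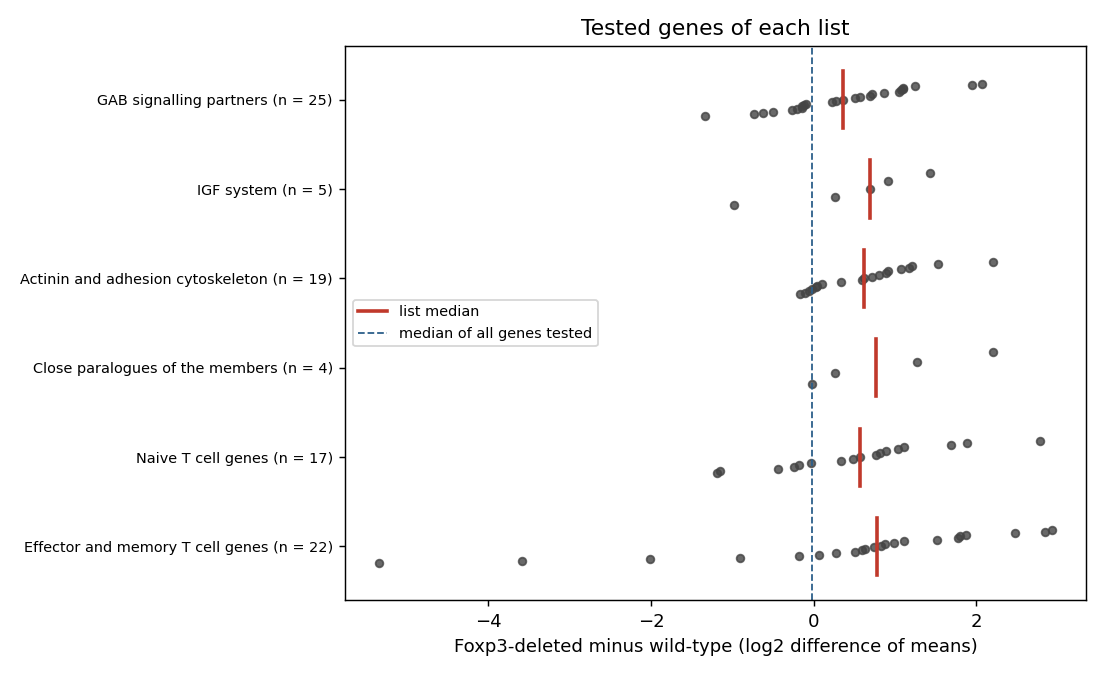
Difference between deleted and wild-type means on the log2 scale (x axis) for each tested gene of the 6 lists (rows, number of tested genes in brackets). Points are genes, red bars are list medians and the dashed blue line is the median of all genes tested. The medians lie between 0.36 and 0.78, and the widest spread is in the effector and memory list, from -5.34 to 2.93.

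**Figure D4:**
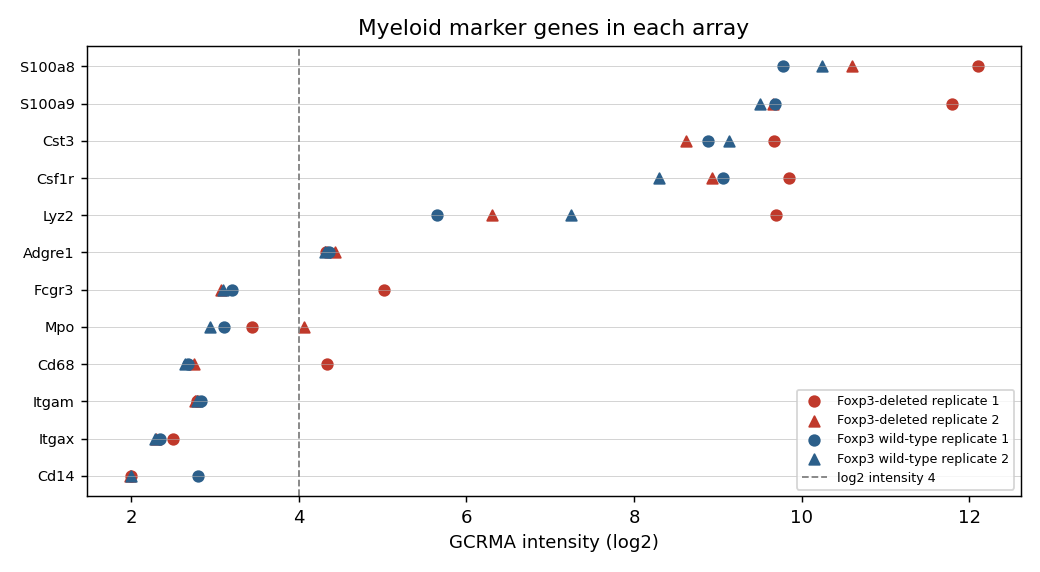
GCRMA intensity on a log2 scale (x axis) of the 12 myeloid marker genes (rows) in each array, with colours and symbols for group and replicate as in the legend. Deleted replicate 1 is highest for 8 genes, among them Lyz2 (9.69 against 5.65 to 7.24 in the other arrays) and Itgax. Itgam, Itgax and Cd14 stay below 4 in all arrays.

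The genes whose pattern over the 4 arrays lay nearest to each member were found by the root mean square distance of log2 values, each centred on its own mean, among 8622 other tested genes. Gab3 was nearest to Klrb1f, a lectin-like receptor gene, at a distance of 0.15, with Tgfbr3 next at 0.29. Of the genes searched, Rflnb was nearest to Lrrc75b (0.06) and Tmem176b to Tdrp (0.04). Second nearest of the genes searched were Tmem176b for Lrrc75b (0.11) and Rflnb for Tdrp (0.10). Igfbp4 and Nsg2 both had the cytokine gene Ifng nearest (0.11 and 0.24), followed by Tnfsf8 for Igfbp4 (0.11) and Ifitm2 for Nsg2 (0.24). Actn1 lay nearest to Gm11346 (0.03) and Rnf144a (0.09), and Dapl1 to Nfatc2ip (0.06) and Mnt (0.06). Within a distance of 0.25 there were 157 genes for Dapl1, 33 for Actn1 and 1 for Gab3. These distances rest on 4 arrays and on the same contrast, so they describe patterns alike in size and say nothing more.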

How the data were processed

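The authors deposited 1 GCRMA intensity per probe set and array, on a linear scale; per the submitters' processing notes it was made with GCRMA 1.1.3, which corrects background by probe sequence, scales the arrays alike and joins the probes of each set into 1 value. Its other settings are not given in the sources used. Weak signals gather at a floor, where differences shrink or vanish. RNA was extracted with Qiagen RNeasy and amplified with Ambion Message Amp II, per the labels' protocols. Groups came from the sample titles.

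Values were analysed as log2, with no pseudocount. From the 45101 probe sets, 64 controls, 932 with several gene symbols and 9160 with none were left out. The 13999 of the remaining 34945 whose log2 intensity averaged 4 or more went into limma 3.58.1 (R 4.3.3; lmFit, eBayes with an intensity trend, 2 residual degrees of freedom), a two-sided test with p adjusted over all of them by Benjamini-Hochberg and a threshold of 0.05. The probe set with the highest mean stood for a gene in the lists. The fit was tested on simulated data. Python 3.11.15, pandas 2.3.3 and matplotlib 3.10.9 were used for tables and plots. No array equalled another, and the number of arrays limits the precision.

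The members and lists were chosen with earlier results of these data known. Named are all members and their paralogues, the 4 largest differences of each list, 13 further genes listed in the rule (some of which are not reported here), Foxp3, and the nearest 2 genes in pattern. Igf1, Igf2, Pappa, the marker genes and Cd79b and Cd22 were named after their values were seen. The promoter motifs were chosen after the promoter sequences had been seen. Alternatives covered the filter, floor, pseudocount, scaling, prior variance, replicate block, probe set choice and leaving out each array.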

Additional observations from a re-analysis of the deposited data

How the results depend on the processing

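The number of tested probe sets past an adjusted p of 0.05 was 0 in each direction, and it became 6 higher and 12 lower with a stricter filter (mean log2 intensity of at least 6), which tests fewer probe sets, and 10 higher and 18 lower with each array centred on its median, where the cause was not tested. Under these same settings the effector and memory list had 2 genes past the threshold, and the other lists had 0 under all alternatives. Over all probe sets the count stayed at 0 in the other alternatives, among them the fit with the replicate number as a block (0 higher and 0 lower) and each fit that left out an array (0 to 0). These fits keep 1 residual degree of freedom, and where an array is left out the lone array is assumed to vary like the other group, so their 0 calls say nothing about stability. The labels do not say whether the replicate numbers pair the samples. Deviations of same-numbered arrays correlated at -0.27, which cannot settle this. The crossed pairing, chosen after seeing the data, also gave 0 and 0 calls. Probe sets higher by at least 1 with no overlap numbered 934, and 520 with the stricter filter; those lower numbered 621, and 337 with the stricter filter and 376 with a pseudocount of 16. Leaving out 1 array gave 865 to 1915 higher and 820 to 1181 lower (the most higher and the most lower both without wild-type replicate 2, with 1063 lower without deleted replicate 1). The 10 probe sets of the 7 genes became 6 with the stricter filter, which removed the dimmer ones. Without a filter the median difference turned to -0.046 for the growth factor list and -0.030 for the paralogues, since most of their genes lie at the floor. The growth factor median was also 0.40 with values below 4 raised to 4, 0.26 when a gene's tested probe sets were averaged and 1.06 under the stricter filter. Every tested member probe set kept its direction under all alternatives that could be run on it. Where the groups do not overlap, leaving out an array, raising the floor or adding a pseudocount cannot turn the direction. The kept direction therefore says nothing about stability there. With a pseudocount of 16 the difference was 2.47 for Gab3, 1.43 for Lrrc75b and 1.75 for Tdrp.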

Other observations

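Markers of B cells were mostly at the floor, with 4 of 7 below a log2 intensity of 4 in every array, but Cd79b, a chain of the B cell receptor complex, read 4.04 and 4.94 (log2) with Foxp3 deleted and 6.58 and 6.49 with it intact, a difference of -2.04. Cd22, an inhibitory receptor of B cells, read 5.86 and 6.33 with Foxp3 deleted and 5.70 and 3.76 with it intact. Of the myeloid markers, S100a8 read 12.10 in deleted replicate 1 and 9.78 to 10.60 in the other arrays, and Fcgr3 read 5.01 there and 3.07 to 3.20 elsewhere.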
